A study of Sus scrofa with 9 samples.

Results

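Cytokines, chemokines and their receptors are the signalling proteins, and the matching surface receptors, through which immune cells, endothelium, fat and muscle fibres communicate. Here the group was taken by gene symbol: every interleukin and interleukin receptor (IL followed by a digit), every gene starting with CCL, CXCL, CCR, CXCR or TNF, and the colony stimulating factors CSF1, CSF2 and CSF3. Probes were named by matching the accession that the array files give to a pig RefSeq gene table, which holds 165 symbols of this kind. Of these, 82 genes had at least 1 named probe on the array, with 115 probes in all, among 3196 named genes and 43603 probes. The other 83 symbols had no named probe and were not analysed here, and IL1RN, the IL-1 receptor antagonist, was among the genes with no probe under that name. For 53 of the 82 genes (74 probes), the image analysis software called a probe well above background on 3 or more of the 9 arrays, and these were tested.

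Interleukins and colony stimulating factors act mainly on immune cells, and contracting or injured muscle also makes some of them, IL-6 and IL-15 among them. Chemokines guide leukocytes along gradients by binding G-protein-coupled receptors. Tumour necrosis factor (TNF) and its relatives bind TNF superfamily receptors, several of which feed into NF-kB, and TNF in obese fat and muscle is widely studied for its effect on insulin action.

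The samples were longissimus dorsi, the long back muscle, of Bama minipigs, a miniature pig from China. The control diet group (CD, 3 animals, 1 array each) ate standard pig chow, and 6 animals with 1 array each ate the high-fat high-sucrose diet (HFHSD), a mix of 53% basal diet, 37% sucrose and 10% lard. All animals were gonadally intact males and females aged 6 months at the start, received a restricted ration for 23 months and were fasted overnight before dissection; the labels do not give each animal's sex. The labels also differ on the number of CD animals, with 3 in the series design and 6 in the growth protocol; arrays of 3 were analysed here. Numbers such as HFHSD 1 are names and carry no order or pairing. The question the design poses is how the diet group differs from the control group, and every value below is a log2 signal relative to the 75th percentile of its own array, so 0 is that percentile. Levels are compared between arrays for the same probe, never between probes. The summed signal of a list adds its probes, so it weighs the brightest probes most.

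The 9 arrays lay on 3 slides. Slide 1 held HFHSD 5 and 6 only and was scanned on another day than the rest, slide 2 held HFHSD 1, 3 and 4 with CD 1, and slide 3 held HFHSD 2 with CD 2 and CD 3. CD 1 was the dimmest array, with 36.7% of all probes well above background, while the other 8 arrays had 51.1% to 68.8%. All 11 of the measured skeletal muscle markers, such as ACTA1, MYH1, MYH7 and CKM, were tested. None passed (limma), with 2 at an unadjusted p under 0.05, beside 18.4% of all tested named genes. In HFHSD 9 were lower and 2 higher (2 lower and 9 higher under normexp with percentile scaling). The fast fibre genes MYH2 (-1.0, adjusted p = 0.158) and TNNT3 (-1.04, 0.108) read lower without overlap, which 13.1% of named genes also showed in either direction. Other fast fibre genes differed less or the other way, with MYH4 at 0.61, MYH1 at 0.01, MYLPF at -0.09 and MYL1 at -0.28. The summed signal of the list, in units of each array's 75th percentile, was 11400 to 15200 in CD and 9300 to 12200 in HFHSD. The part of these markers in the values of the members was not tested. Because a muscle piece holds many cell types, fewer cells of a type and less RNA per cell cannot be told apart in any value below.

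Detection differed by role. All 4 TNF receptor genes on the array could be tested, as could 18 of 23 chemokines and 5 of 7 TNF ligands. Chemokine receptors reached 6 of 10, interleukin receptors 7 of 13 and interleukins 10 of 21. Both TNFAIP genes (TNF-alpha induced proteins) were tested, and CSF3 but not CSF2. The tested share of members was 64.6%, against 81.8% of all named genes. The 29 genes that did not reach 3 arrays include many cytokines of T helper cells and their receptors: IL2, IL5, IL9, IL13, IL17A, IL21, IL2RA, IL2RG, IL7R, IL12RB1, IL18R1 and IL23R. They also include the IL-12 family genes IL12A, IL12B, IL23A and IL27, as well as IL7, and the neutrophil chemokine CXCL8. The rest were CCL8, CCL11, CCL28, CXCL11, CCR3, CCR7, CCR9, CXCR6, CSF2, TNFSF4 and TNFSF8. Of these 29, 18 genes were above background on 0 arrays, 8 on 1 array and 3 on 2 arrays. At the other end, 26 genes were above background on all 9 arrays, and 14 of these were chemokines.

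By array, 26 member genes were above background on CD 1, against 48 on CD 3 and 52 on CD 2. In the HFHSD group the number ran from 43 on HFHSD 1 to 56 on both slide 1 arrays. CD 2 and CD 3 thus lay within the HFHSD range and CD 1 below it, so a gene that is dim on CD 1 has only a weak measurement there.

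**Figure D1:**
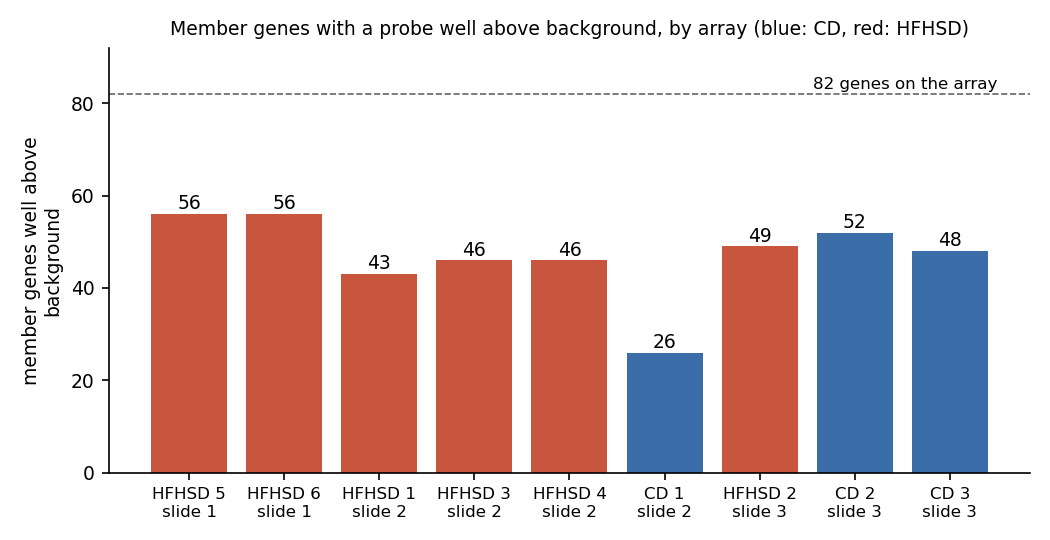
Number of the 82 cytokine, chemokine and receptor genes with a probe well above background (vertical axis) on each of the 9 arrays, ordered by slide, with CD in blue and HFHSD in red and the dashed line at 82 genes. CD 1 has 26 such genes, and the other arrays have between 43 and 56.

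With the diets compared, 1 of the 53 tested genes passed the threshold (limma, adjusted p under 0.05 over all 27922 tested probes): TNFRSF1A, the main receptor of TNF, which was lower in HFHSD muscle. That is 1.89% of the tested members, beside 0.995% of all named genes by their brightest probe, and 0.498% when lower genes alone are counted. Counted by probe, 1 of 74 member probes passed, or 1.35%, beside 1.23% of all tested probes. Shares this close to the background are not a result about the group as a whole. At an unadjusted p under 0.05 there were 7 member genes, 5 higher and 2 lower, which is 13.2% of them beside 18.4% of named genes (6.74% higher and 11.7% lower). Groups that did not overlap occurred for 3 genes (TNFRSF1A, IL13RA2 and CCL19), or 5.66% beside 13.1%.

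The signs of the 53 differences were mixed, with 31 genes higher in HFHSD (58.5%, beside 42.4% of named genes) and 22 lower. The median difference was 0.15 on the log2 scale, beside -0.08 over all named genes and -0.02 over all tested probes. The balance depended on the combination of background correction and scaling. After normexp background correction with the same percentile scaling 18 of 53 were higher (34.0%, beside 45.5% of named genes), and the median was -0.16, beside -0.05 over named genes and -0.17 over all tested probes. With normexp and quantile normalization 34 of 53 were higher and the member median was 0.08, and with quantile normalization alone the values were 34 and 0.24. With slide as a fixed block the member median was 0.05 and 0 member genes passed (limma), beside 0.268% of named genes, with 12 (22.6%) at an unadjusted p under 0.05, beside 19.4% of named genes.

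**Figure D2:**
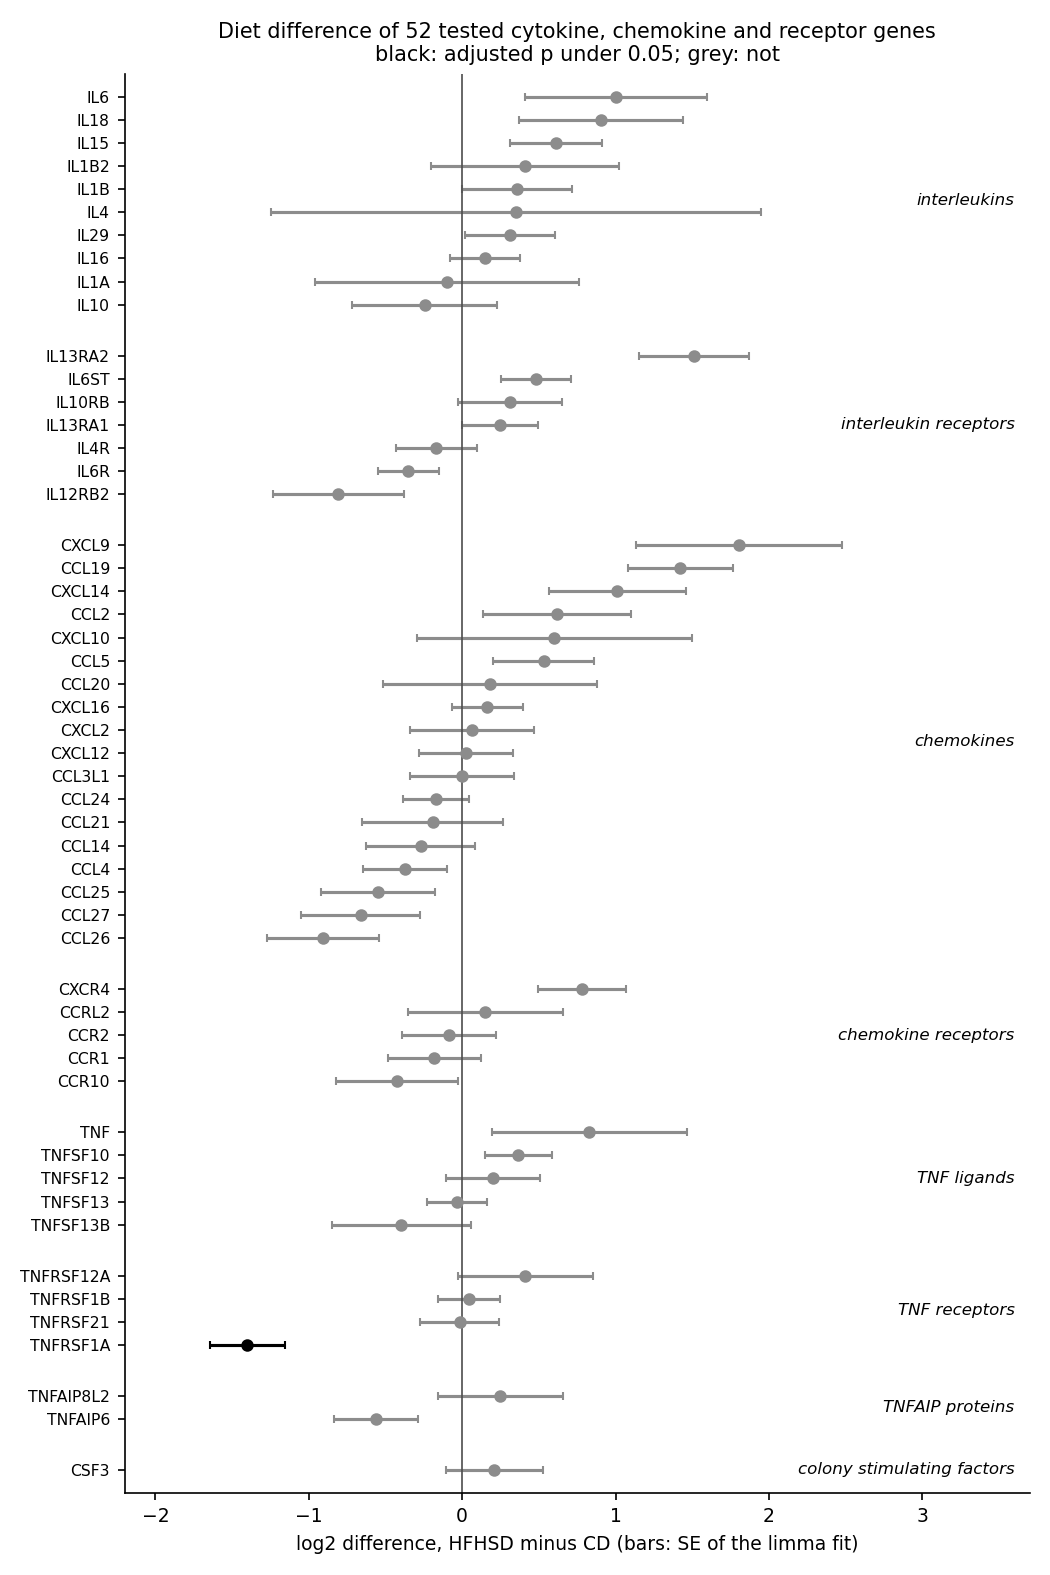
Log2 difference between diets, HFHSD minus CD, for 52 of the 53 tested genes grouped by role, each by its brightest probe; points are fitted differences from 6 and 3 arrays and bars are standard errors. TNFRSF1A at -1.40 is the only black point, and the other 51 genes lie on both sides of 0.

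TNFRSF1A was lower in the muscle of HFHSD animals by 1.40 on the log2 scale, a level 2.64-fold below the controls. The gene encodes TNF receptor 1, the widely expressed death-domain receptor that passes the TNF signal to NF-kB and to caspases. On its brightest probe, A_72_P165291, the CD values were 4.20, 3.98 and 4.80. The HFHSD values were 3.46, 2.62, 2.82, 2.91, 2.89 and 2.85 in replicates 1 to 6. Every HFHSD array lay below every CD array, and HFHSD 1 was the closest to the controls. The mean was 4.33 ± 0.43 (SD, n = 3) for CD and 2.93 ± 0.28 (SD, n = 6) for HFHSD, with a standard error of the difference of 0.245 and an adjusted p of 0.0331 (limma).

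The difference was present within both slides that held both diets, at -1.13 in slide 2 and -1.78 in slide 3, and the CD 1 array on slide 2 gave a value between those of CD 2 and CD 3. The other TNFRSF1A probes also read lower in HFHSD, without passing. Probe A_72_P569839 gave -1.47, -1.68 and -0.41 in CD and -2.86 to -1.50 in HFHSD, with a median of -2.59. Its difference was -1.21, with an adjusted p of 0.126. Probe A_72_P441574 gave 3.05, 3.36 and 3.96 in CD and 2.57 to 3.13 in HFHSD, with a median of 2.86. Its difference was -0.62, with an adjusted p of 0.218. In both, HFHSD and CD overlapped through a single HFHSD array, HFHSD 1 on the former and HFHSD 5 on the latter, while CD 3 was the highest array on all 3 probes.

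The call on TNFRSF1A sat close to the threshold. It was lost without HFHSD 2 (adjusted p = 0.0697), HFHSD 3 (0.0726), HFHSD 5 (0.058), HFHSD 6 (0.0682), CD 1 (0.0937), CD 2 (0.0591) or CD 3 (0.185), with differences from -1.57 to -1.16 over all 9 omissions. It was also lost when slide entered as a fixed block (-1.43, adjusted p = 0.0875), without both slide 1 arrays (-1.37, 0.0859) and with normexp and percentile scaling (-0.94, 0.44).

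**Figure D3:**
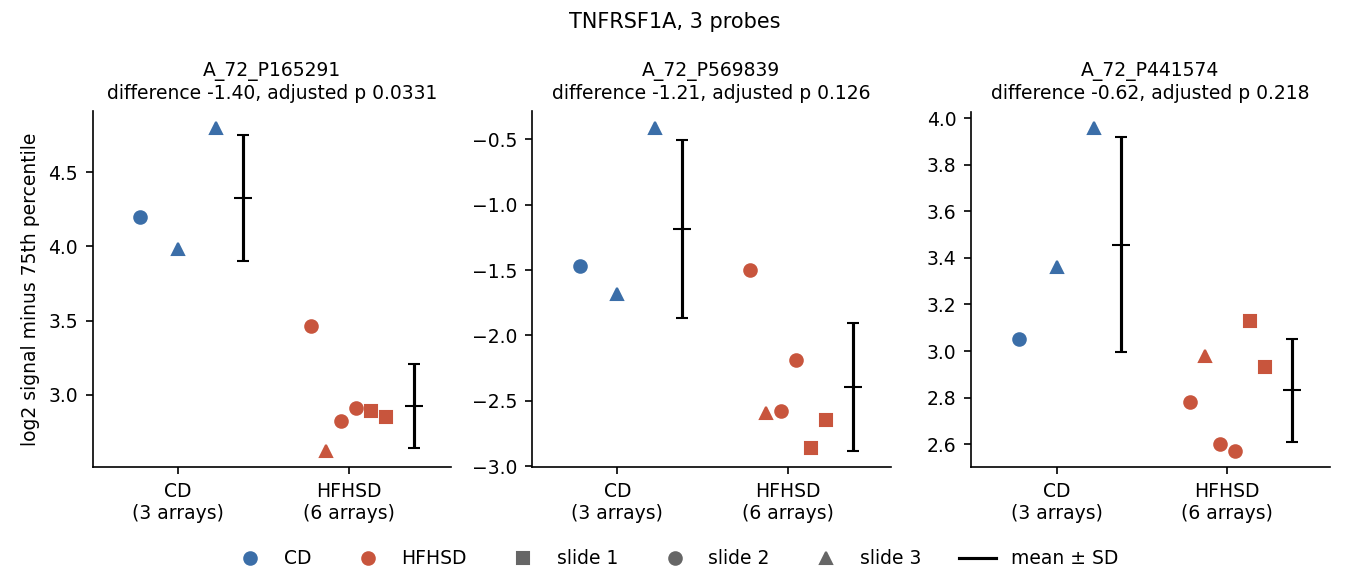
Log2 signal relative to the array's 75th percentile for the 3 TNFRSF1A probes on each CD (blue, 3) and HFHSD (red, 6) array, with slide by marker shape and bars for mean ± SD; each panel has its own vertical range that does not start at 0. The groups do not overlap on the first probe and overlap by a single HFHSD array on each of the other probes.

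The other TNF receptors showed no such difference. TNFRSF1B, the second TNF receptor, which is found mainly on immune and endothelial cells, differed by 0.05 (adjusted p = 0.944), and its sign turned under quantile normalization (-0.08) and normexp with percentile scaling (-0.33). TNFRSF12A, the receptor of TWEAK that injured muscle switches on, differed by 0.41 (adjusted p = 0.721), and by -0.29 under normexp with percentile scaling. It was above background on 1 of 3 CD and 3 of 6 HFHSD arrays. TNFRSF21, death receptor 6, differed by -0.02 (adjusted p = 0.987) and was higher in HFHSD under quantile normalization (0.07) and both normexp settings (0.35 and 0.15).

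Among the TNF ligands, the tested TNF probe was split between the slide 1 arrays and the rest. Its CD values were -1.49, -1.25 and -1.66, and its HFHSD values were -1.57, -1.26, -1.10, -1.70, 1.07 and 0.74 in replicates 1 to 6. Both slide 1 arrays, HFHSD 5 and 6, stood above every other array, and the remaining HFHSD arrays overlapped with CD. The difference over all arrays was 0.83 with a standard error of 0.635 (adjusted p = 0.593), and without the slide 1 arrays it was 0.06. Within slides it was 0.03 in slide 2 and 0.19 in slide 3. The other TNF probe was above background on 2 arrays and was not tested. Its highest array was HFHSD 3 of slide 2 at -3.54, with HFHSD 5 at -3.62 and HFHSD 6 at -4.36. Since slide 1 held no CD animal, HFHSD 5 and 6 and their slide cannot be told apart.

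TNFSF12 (TWEAK), which acts on TNFRSF12A, showed the same split, with HFHSD 5 and 6 at 5.39 and 5.33 and the other 7 arrays between 4.17 and 4.64. Its difference of 0.20 (adjusted p = 0.812) turned to -0.13 without slide 1. TNFSF10 (TRAIL), a ligand of death receptors, had a pair of probes. On the brighter probe HFHSD ran from 0.05 to 0.82 with a median of 0.36, against 0.12, 0.18 and -0.16 in CD, a difference of 0.37 (adjusted p = 0.459). On the dimmer probe the groups did not overlap, with CD at -0.46, -0.84 and -1.15 and HFHSD from -0.20 to 0.32 with a median of -0.14. That difference was 0.74 with a standard error of 0.208 and did not pass (adjusted p = 0.108). TNFSF13 (APRIL) differed by -0.03. TNFSF13B (BAFF), a B cell survival factor, differed by -0.40 (adjusted p = 0.745) and turned to 0.26 under quantile normalization and 0.05 with normexp and quantile normalization.

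No interleukin passed, and 8 of the 10 tested genes had a positive difference. That number was 10 under quantile normalization and 4 under normexp with percentile scaling, and 0 had an unadjusted p under 0.05. IL6, which muscle releases during exercise and which also drives the acute phase response, was highest in a single animal. Its CD values were -2.07, -2.72 and -3.08 and its HFHSD values were 0.29, -2.34, -1.42, -2.76, -2.21 and -1.27. HFHSD 1 stood far above the rest, HFHSD 3 and 6 came next, and HFHSD 2, 4 and 5 lay within the CD range. The difference was 1.01 with a standard error of 0.594 (adjusted p = 0.454), and it was 0.62 without HFHSD 1. The other IL6 probes gave 0.46 and 1.05, and HFHSD 1 was the highest array on each of the 3 probes, at -2.16 and -1.33 on the dimmer ones. The probe at 0.46 was above background on 1 of 3 CD and 3 of 6 HFHSD arrays. The probe at 1.05 was above background on 0 of 3 CD and 3 of 6 HFHSD arrays. That probe was thus tested only through HFHSD, and its difference gives no fold.

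IL18, an inflammasome product made by macrophages and other cells, divided the HFHSD animals. Its CD values were -0.60, -1.45 and -1.21, while its HFHSD values were -1.33, 0.62, 0.78, 0.48, -1.41 and -0.22. HFHSD 2, 3, 4 and 6 lay above all controls, and HFHSD 1 and 5 lay within them. The second probe showed HFHSD 2, 3, 4 and 6 above the controls in the same way, with values of 0.48, 0.81, 0.61 and -0.40 against a highest CD value of -0.99. The differences were 0.91 and 1.01, with adjusted p-values of 0.453 and 0.387.

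IL15, a T and NK cell growth factor abundant in muscle, ran from -2.50 to -1.38 in HFHSD with a median of -1.60, against -1.85, -2.46 and -2.80 in CD. Its difference was 0.61 (adjusted p = 0.354), and it was -0.20 within slide 2 and 1.15 within slide 3. A dimmer probe gave 0.95 (adjusted p = 0.151), with 0.91 and 1.01 within those slides, and only HFHSD 1 fell into the CD range. On that probe CD 1, the slide 2 control, lay below the lowest well-above-background signal of its array. Under normexp with percentile scaling the brighter probe's difference was -0.02.

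IL1B, the inflammasome-processed fever cytokine, was not well above background on any of the 3 CD arrays but was on 4 of the 6 HFHSD arrays, so its fitted difference of 0.36 (adjusted p = 0.705) gives no fold. It turned negative under both normexp settings, at -0.37 and -0.01. IL1B2, a near-identical copy of IL1B in pigs, differed by 0.41 (adjusted p = 0.808), and its values rest on HFHSD 5 at 1.71, since the other HFHSD arrays ran from -1.39 to -0.63 and CD from -1.42 to -0.63. Signal from these copies may be shared between their probes. IL10, an anti-inflammatory cytokine, was above background on 0 of 3 CD and 3 of 6 HFHSD arrays, and its difference of -0.24 (adjusted p = 0.861) turned to 0.41 under quantile normalization. IL29, a type III interferon, differed by 0.31 (adjusted p = 0.676), which was -0.06 under normexp with percentile scaling.

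**Figure D4:**
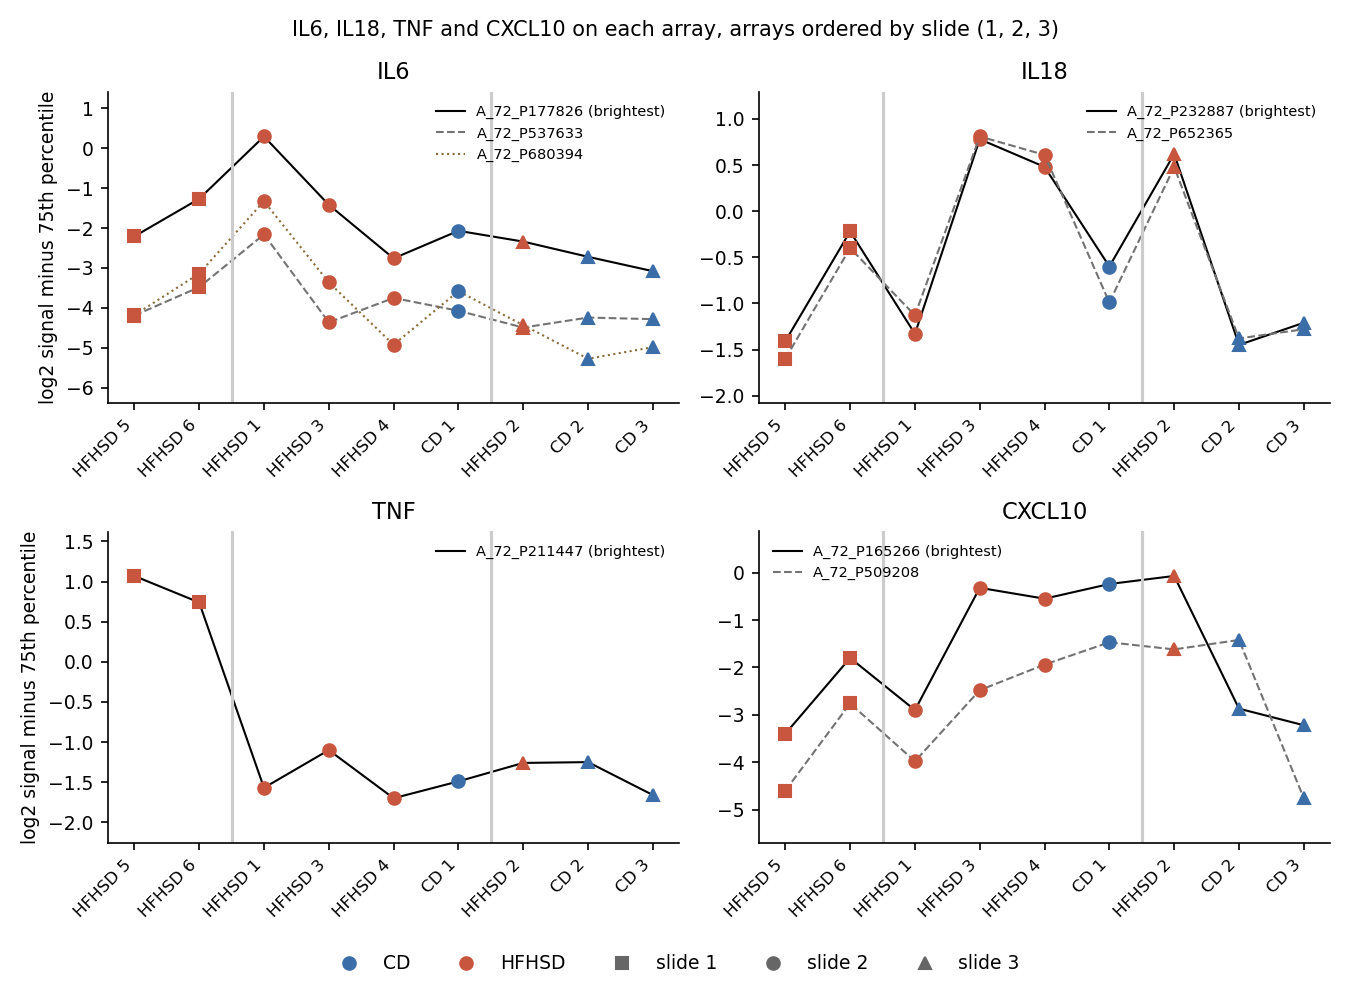
Log2 signal relative to the array's 75th percentile for IL6, IL18, TNF and CXCL10 on each array, ordered by slide 1, 2 and 3 and separated by grey bars, with CD in blue and HFHSD in red and a line joining the values of each probe only to guide the eye. IL6 peaks on HFHSD 1 on 3 probes, IL18 is high on HFHSD 2, 3 and 4, TNF is high on both slide 1 arrays, and CXCL10 is high on CD 1 as well as on HFHSD 2, 3 and 4 on its brighter probe and highest on CD 2 and CD 1 on its dimmer probe.

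Of the 7 tested interleukin receptors, 4 were higher and 3 lower (1 and 6 under normexp with percentile scaling), and none passed (limma); 1 had an unadjusted p under 0.05. That gene was IL13RA2, which binds IL-13 tightly and is known mainly as a decoy. Its CD values were -4.18, -3.83 and -4.80, and its HFHSD values ran from -3.58 to -1.83 with a median of -2.75. Every HFHSD array lay above every CD array, but only 1 of 3 CD arrays was well above background, against 6 of 6 HFHSD arrays. A second probe was above background on 0 arrays and was not tested. On the tested probe the difference was 1.51 with a standard error of 0.358 (adjusted p = 0.0733), and it was 1.69 within slide 2 and 1.57 within slide 3. The slide 2 control, CD 1 at -4.18, lay below the lowest well-above-background signal of its array (-2.035), so the difference within slide 2 has no detected control. With normexp and percentile scaling the difference over all arrays was -0.05, and with array weights IL13RA2 passed at an adjusted p of 0.0275 (limma).

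The signal-transducing receptor of the IL-6 family, IL6ST (gp130), was 1.46, 0.81 and 1.03 in CD and ran from 1.12 to 1.89 in HFHSD with a median of 1.65. HFHSD 2 and 6 fell within the CD range. The difference was 0.48 (adjusted p = 0.333). Its dimmer probe separated the groups without overlap, with CD at -1.56, -1.90 and -1.90 and HFHSD from -1.51 to -0.78 with a median of -1.08, and gave 0.68 (adjusted p = 0.134). IL6R, which binds IL-6 and then joins IL6ST, had an opposite sign on its brightest probe, at -0.35 (adjusted p = 0.43). A similar probe gave -0.32 with no overlap between the groups, and the dimmest probe gave 0.16 with HFHSD 1 far above the other arrays at -0.95. IL12RB2, the signalling chain of the IL-12 receptor, was lower by value in HFHSD, at -0.81 (adjusted p = 0.39). HFHSD 1, 3 and 4 of slide 2 were at -3.85, -4.16 and -4.12 and the other arrays between -2.84 and -2.39. It was above background on 2 of 3 CD and 3 of 6 HFHSD arrays. HFHSD 1, 3 and 4 and CD 1, the arrays of slide 2, lay below the lowest well-above-background signal of their own array, so those low values are not measured levels.

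Of the 18 tested chemokines 10 were higher and 8 lower (8 and 10 under normexp with percentile scaling). None passed (limma), and 4 had an unadjusted p under 0.05, beside 18.4% of named genes. CCL19, the CCR7 ligand that draws T cells and dendritic cells to lymphoid tissue, had the clearest separation. CD gave -0.46, 0.16 and -0.61, and HFHSD gave 2.0, 0.71, 0.61, 0.72, 1.16 and 1.51. All HFHSD arrays were above all CD arrays, and the lowest HFHSD array was nearest to CD 2. The difference was 1.42 with a standard error of 0.340 (adjusted p = 0.0744), and it was 1.57 within slide 2 and 0.94 within slide 3. Among probes above background on all 9 arrays, with fewer tests, its adjusted p was 0.0362. CCR7, the receptor of CCL19, was above background on only 2 arrays.

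CXCL9 and CXCL10 are interferon-induced chemokines that recruit activated T cells. CXCL9 was -4.27, -4.33 and -5.96 in CD and -4.52 to -1.22 in HFHSD with a median of -3.11. HFHSD 5 fell within the CD range and HFHSD 2 was the highest array, while 1 of 3 CD arrays and 6 of 6 HFHSD arrays were above background. The difference was 1.80 with a standard error of 0.670 (adjusted p = 0.212), 1.21 within slide 2 and 3.92 within slide 3, and it was 0.00 with normexp and percentile scaling. CD 1 and CD 3 lay below the lowest well-above-background signal of their arrays. The value within slide 2 thus has no detected control, and the value within slide 3 rests partly on an undetected one. CXCL10 had controls among its high arrays. CD was at -0.24, -2.87 and -3.22 and HFHSD from -3.40 to -0.07 on the brighter probe, and on the dimmer probe CD 1 and CD 2, at -1.47 and -1.42, were above every HFHSD array. Its probes disagreed in sign, at 0.60 and -0.35 (adjusted p = 0.809 and 0.894). CXCL11, another chemokine of that kind, was above background on 0 arrays.

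CXCL14, a chemokine made by epithelium, fat and muscle, was 1.03, 1.13 and 0.65 in CD and ran from 0.90 to 3.30 in HFHSD, with a median of 1.93. HFHSD 1 lay in the CD range and HFHSD 2 far above it. The difference was 1.01 (adjusted p = 0.297), 0.36 within slide 2 and 2.41 within slide 3. CCL26, an eotaxin that attracts eosinophils, pointed the other way, with CD at 2.03, 1.49 and 0.94 and HFHSD from -0.11 to 1.17 with a median of 0.73. Its difference was -0.91 (adjusted p = 0.248), and -1.42 and -1.33 within slides 2 and 3. CD 3 overlapped with the HFHSD arrays.

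CCL2, the main monocyte chemokine, spread as widely in CD as between the diets. Its CD values were -0.65, -1.57 and 0.40, and HFHSD ran from -1.13 to 0.78 with a median of 0.04. The difference was 0.62 (adjusted p = 0.602) on this probe and 0.38 on the other, and it was 0.14 without CD 2 and 1.12 without CD 3. CXCL12, the CXCR4 ligand made by stroma, differed by 0.02 (adjusted p = 0.983) and had no stable sign, at -0.24 with slide as a fixed block. CXCL2 (0.06) and CCL3L1 (0.00) were at similar levels on average in both groups, with standard errors of 0.404 and 0.340. The neutrophil chemokine CXCL2 ran from 1.99 to 3.53 over the HFHSD arrays, as far as from 2.04 to 3.45 in CD.

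**Figure D5:**
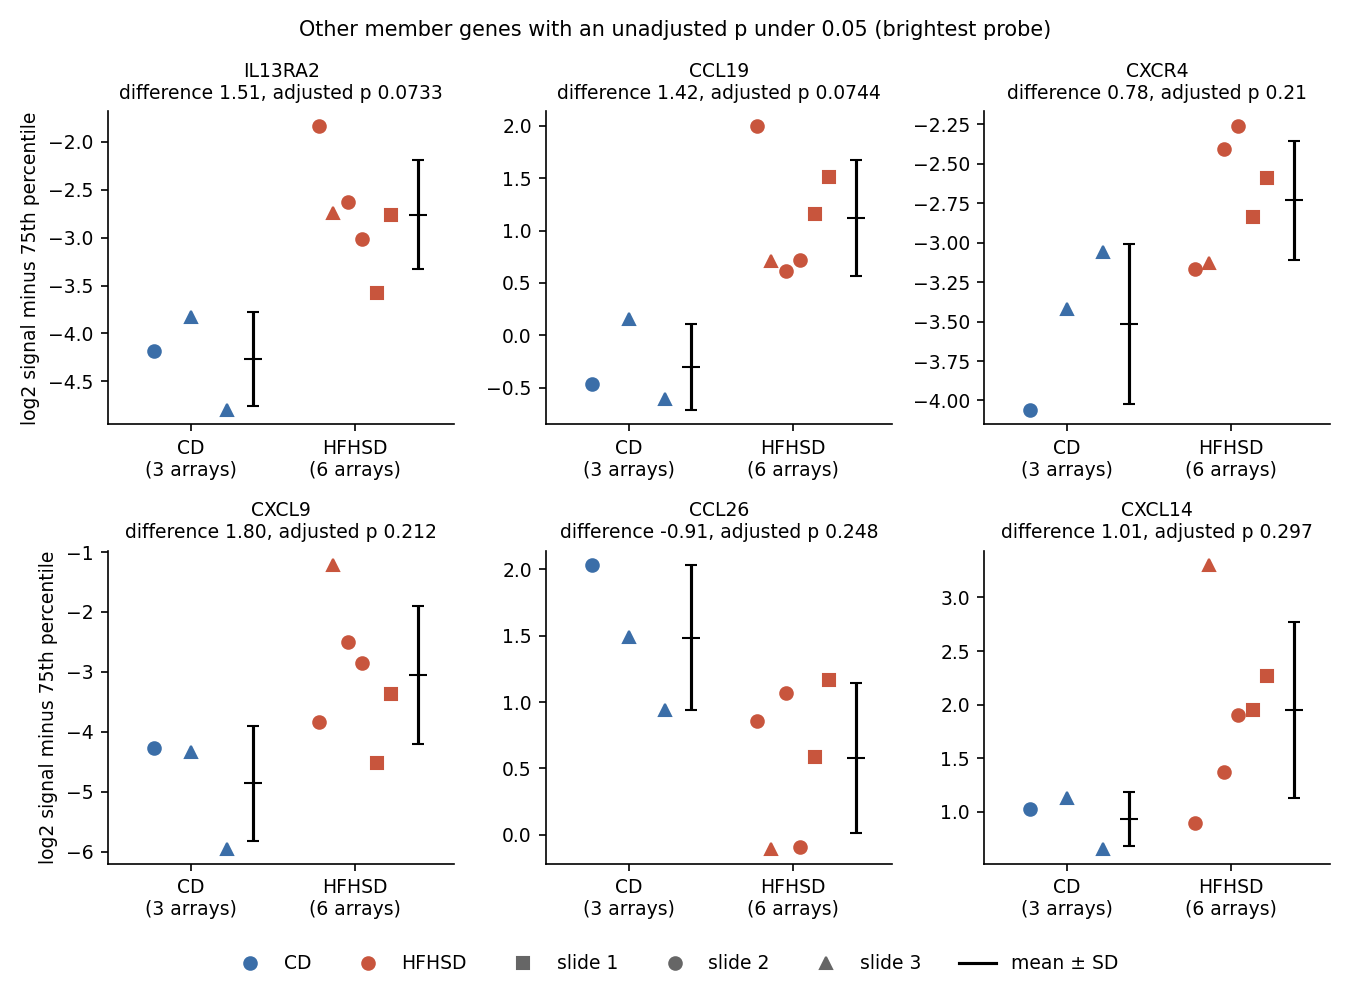
Log2 signal relative to the array's 75th percentile for the 6 other genes with an unadjusted p under 0.05, by array, with CD in blue, HFHSD in red, slide by marker shape and bars for mean ± SD (3 and 6 arrays); vertical ranges differ and do not start at 0. The groups do not overlap for IL13RA2 and CCL19 and overlap for CXCR4, CXCL9, CCL26 and CXCL14, and no adjusted p is under 0.0733.

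Chemokine receptors were dim, with 0 of 10 genes above background on all 9 arrays, and none of the 6 tested passed (limma); 1 had an unadjusted p under 0.05. CXCR4, the CXCL12 receptor of leukocytes and muscle stem cells, was -4.06, -3.42 and -3.06 in CD and -3.17 to -2.26 in HFHSD with a median of -2.71. HFHSD 1 and 2 fell within the CD range. The difference was 0.78 (adjusted p = 0.21), 1.44 within slide 2, where the dim CD 1 was the control, and 0.11 within slide 3. CD 1 lay below the lowest well-above-background signal of its array (-2.035), so the value within slide 2 has no detected control. Without CD 1 the difference was 0.51, and under normexp with percentile scaling it was -0.23. CCR2, the CCL2 receptor of monocytes, differed by -0.09 (adjusted p = 0.93), a value that normexp and quantile normalization turned to 0.03. CCR1 (-0.18) and CCR10 (-0.42) had negative differences with adjusted p-values of 0.834 and 0.673.

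TNFAIP6, an anti-inflammatory hyaluronan-binding protein that TNF and IL-1 induce, differed by -0.56 on its brightest probe (adjusted p = 0.354) and by 0.02 on the other. On the brightest probe CD gave -0.63, -1.53 and -0.54, and HFHSD ran from -1.86 to -1.03, so that CD 2 fell among the HFHSD arrays. TNFAIP8L2, a restraint on immune cell activation, differed by 0.25 (adjusted p = 0.828) and turned to -0.18 and -0.08 under the normexp settings with percentile scaling and quantile normalization. CSF3, the granulocyte growth factor, differed by 0.21 (adjusted p = 0.812), and its sign turned under normexp with percentile scaling, at -0.34. A dimmer CSF3 probe gave 1.11 (limma, adjusted p = 0.429), with -0.64 within slide 2 and 2.91 within slide 3. That probe was above background on 0 of 3 CD and 4 of 6 HFHSD arrays, so its difference gives no fold.

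Where a gene had several probes, they tended to follow the same animals. Of the 17 genes with 2 or more tested probes, 11 had the same highest array on every probe and 6 the same lowest array. For 12 of the 17 the probes gave differences on the same side of 0, and for CXCL10, CXCL16, IL6R, TNFAIP6 and TNFAIP8L2 they did not. For 29 of 53 genes the difference had the same sign within slide 2, within slide 3 and over all arrays, which is 54.7% beside 60.3% of named genes.

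Both slide 1 arrays lay outside the range of the other 7 for 10 of the 53 genes, or 18.9% beside 27.2% of named genes. They were above it for TNF, TNFSF12, TNFRSF12A, TNFAIP8L2, IL1A, CCL20 and CXCL12, and below it for TNFRSF21, CCL24 and IL4. IL1A, an alarm cytokine, was at -2.62 and -2.83 on HFHSD 5 and 6 against -6.15 to -4.34 elsewhere. CCL20, the CCR6 ligand, was at -1.63 and -2.34 against -5.07 to -2.94. IL1A and IL4 were each above background on 1 of 3 CD and 2 of 6 HFHSD arrays, and CCL20 on 2 of 3 and 3 of 6. IL4 on HFHSD 5 and 6 lay below the lowest well-above-background signal of those arrays, so its place below the others is not a measured level. The part of the slide in these values was not tested.

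Genes that act beside or after these receptors were taken as lists. None of the 16 tested NF-kB and TNF receptor signalling genes passed (limma), with 7 higher, 9 lower and a median of -0.05. Beside 18.4% of named genes, 2 of these 16 had an unadjusted p under 0.05. These were FADD, the adaptor that links TNF-family death receptors to caspases, at -0.78 (standard error 0.178, adjusted p = 0.0666), and TAB1, a partner of the kinase TAK1, at -0.58 (adjusted p = 0.114). Both were without overlap, as were 13.1% of named genes, and read lower in both mixed slides. FADD passed with normexp and quantile normalization (-0.65, adjusted p = 0.0149), slide as a random block (0.0458), array weights (0.0253), the variance trend (0.0385) and all 9 arrays above background (0.0311). It did not pass with quantile normalization alone (0.0791), when slide was a fixed block (0.101), without the filter on dim probes (0.196) or without any 1 of the 9 arrays (0.0744 to 0.274). Under normexp with percentile scaling the differences were -0.44 for FADD and -0.02 for TAB1. NFKBIA, the NF-kB inhibitor that NF-kB itself induces, differed by 0.27 (adjusted p = 0.551), NFKB1 by -0.10 and RELA by 0.15; the sign of NFKB1 turned under normexp with percentile scaling (0.04) and that of RELA under both normexp settings (-0.29 and -0.03).

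Of the 14 JAK-STAT genes, which carry signals of interleukin receptors, 8 were higher and 6 lower with a median of 0.08. None passed (limma), and 4 had an unadjusted p under 0.05, beside 18.4% of named genes. Groups did not overlap for 2 of the 14, beside 13.1% of named genes. SOCS2, a feedback inhibitor of cytokine and growth hormone receptors, was lower by value without overlap, at -1.16 (standard error 0.254, adjusted p = 0.0595). It was above background on 2 of 3 CD and 3 of 6 HFHSD arrays, and it passed under quantile normalization (-1.20, adjusted p = 0.049). It also passed with slide as a random block (0.0454), array weights (0.034) and without HFHSD 4 (0.0475), but not without any other single array (0.0803 to 0.242). The difference was -0.65 (adjusted p = 0.609) with normexp and percentile scaling, -0.43 (0.145) with normexp and quantile normalization and -1.28 (0.106) when slide was a fixed block. SOCS3, which IL-6 induces, differed by -0.59 (adjusted p = 0.296), and by -0.52 and -0.11 under normexp with percentile scaling and with quantile normalization. It was above background on 2 of 3 CD and 3 of 6 HFHSD arrays. SOCS6 differed by -0.44 (adjusted p = 0.294), JAK2 by 0.55 (0.23) and STAT3 by 0.13 (-0.12 under normexp with percentile scaling). Of the 19 tested other cytokines and receptors outside the naming rule, 10 were higher and 9 lower with a median of 0.03, and none passed (limma), with 1 at an unadjusted p under 0.05. That gene was IFNGR2, a chain of the interferon-gamma receptor, at -0.80 without overlap (adjusted p = 0.101).

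Markers of the cells that make or sense these factors were read on the same arrays. Of 10 macrophage and monocyte markers 1 rose, FCGR3A, an Fc receptor also found on NK cells and neutrophils, at 1.19 (adjusted p = 0.0338, all 3 probes passed). It passed under each of the 3 other scalings, but not when slide was a fixed block (0.96, adjusted p = 0.0701), without the filter on dim probes (0.103), without both slide 1 arrays (0.085) or without any 1 of the 9 arrays (0.0515 to 0.191). The other 9 had negative differences that did not pass (4 of 10 markers under normexp with percentile scaling), CD163 at -1.13 (adjusted p = 0.347) among them. The summed signal of the list, in units of each array's 75th percentile, was 21.2 to 35.3 in CD and 15.9 to 37.0 in HFHSD. Of 8 T cell markers on the array 4 were tested, and all 4 were negative under normexp with percentile scaling. In the main fit CD3E and LCK differed by 0.01 each, and CD247 and CD3G by 0.86 each. CD3G was above background on 0 of 3 CD and 3 of 6 HFHSD arrays, so it was tested only through HFHSD and gives no fold. None of the 4 passed (limma), and 1, CD247, had an unadjusted p under 0.05, beside 18.4% of named genes. The sum of the 4 was 0.374 to 0.469 in CD and 0.415 to 0.931 in HFHSD, and CD3D, CD2, CD4 and CD8A were not above background on 3 arrays. The B cell markers CD79A and MS4A1 were likewise not above background on 3 arrays.

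All 8 tested adipocyte markers had positive differences (7 of 8 under normexp with percentile scaling), with a median of 1.35. That median was 0.62 and 0.63 under the normexp settings with percentile scaling and quantile normalization. PLIN1, a lipid droplet coat protein, had fitted differences of 1.82 in the main fit and -0.16 and 0.05 under those settings. PLIN1 was above background on 0 CD and 5 HFHSD arrays. It was thus tested only through HFHSD and gives no fold, and the medians include it. Of the list 1 rose, CIDEA, another lipid droplet protein, at 1.49 (adjusted p = 0.0378). It did not pass under normexp with percentile scaling (0.95, adjusted p = 0.222), when slide was a fixed block (1.63, 0.0886), without the filter on dim probes (0.107), without both slide 1 arrays (0.085) or without any 1 array other than HFHSD 4 (0.0547 to 0.194). The summed signal of the adipocyte markers was 90.8 to 119 in CD and 113 to 373 in HFHSD. It mostly reflects FABP4 and LIPE, whose mean log2 signals in CD were 5.65 and 5.47, with LPL next at 2.34. Fat also makes IL6, IL18, CCL2 and CXCL14, and the part of fat or immune cells in the values of the members was not tested. Neutrophil and mast cell markers gave 5 higher and 1 lower, endothelial markers 3 and 2, and fibroblast markers 2 and 2. None of these passed (limma), and 2 had an unadjusted p under 0.05, beside 18.4% of named genes.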

How the data were processed

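Per the labels, total RNA was extracted with TRIzol, column-purified with DNase, amplified and labelled with Cy3 for single-colour Agilent arrays. Per the file headers, the authors extracted the deposited spot intensity values with Agilent Feature Extraction 10.7.3.1; the processed signal is background-corrected within each array and not scaled between arrays, and the deposited table of the series holds the same intensity values. Control spots and outlier spots were left out, spots of a probe were averaged, and the log2 processed signal, less each array's 75th percentile, was tested with limma 3.58.1 (R 4.3.3), HFHSD minus CD, two-sided, with Benjamini-Hochberg adjustment over all 27922 probes well above background on at least 3 arrays (threshold 0.05). The number of arrays limits the precision. P-values measure the spread between arrays of a diet group, 1 animal each. The main fit has no slide term, so that spread also holds differences between slides and scan days. The brightest tested probe represents a gene. Accessions were matched without versions to RefSeq (Sscrofa11.1), for names only, and an older annotation of the array named 1 IL6 probe; the files name no build, so coordinates are left out.

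Named were genes that passed, genes without overlap, up to 4 genes per role by smallest p, and a fixed panel of well-known cytokines and receptors; IL1B2, IL1A, CCL20, CCL3L1, CXCL2, CXCL10, TNFSF13, STAT3, NFKB1, RELA and NFKBIA were added after their values were seen. The rule would name 1 further tested member, which is not reported here. Members, lists and rules were chosen with earlier results of these data known. Alternatives covered the normalization, background correction, filter, slide, array weights, variance prior, value table, probe choice, threshold and each array left out. The mean signal column was absent, so normexp (offset 50) used the median signal. The fit was checked on simulated data.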

Additional observations from a re-analysis of the deposited data

Results flagged for a closer look

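In the HFHSD group, 5 of the 74 tested member probes had a single array far from the other 5, by the gap to its nearest neighbour over the group's range (critical value 0.625 for 6 arrays); chance gives about 1 in 20 groups. The IL1B2 probe was at 1.71 on HFHSD 5, with the next array at -0.63 (ratio 0.757). IL29 was at -0.52 on HFHSD 6, with the next at -1.39 (0.651). The dimmer TNFAIP6 probe was at -1.53 on HFHSD 2, with the next at -2.84 (0.778), and the brighter TNFAIP6 probe did not share this. The brightest TNFRSF1A probe was at 3.46 on HFHSD 1, with the next at 2.91 (0.648); without that array its difference was -1.51 and its adjusted p 0.0298 (limma). The dimmer TNFSF10 probe was at 0.32 on HFHSD 4, with the next at -0.08 (0.777).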

How the results depend on the processing

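The count of member probes and genes that passed was 1 each, and it stayed 1 each under quantile normalization with or without normexp, slide as a random block, a variance trend with robust prior and the deposited table, where TNFRSF1A was the gene each time. It was 0 each with normexp and percentile scaling, no filter on dim probes, slide as a fixed block and, in an alternative chosen after seeing the data, without both slide 1 arrays. Averaging the probes of a gene also gave 0 genes. Requiring all 9 arrays above background gave 2 probes and 2 genes (CCL19 and TNFRSF1A), array weights gave 3 probes and 2 genes (IL13RA2, TNFRSF1A and a TNFSF10 probe), and a threshold of 0.1 gave 3 and 3. Leaving out each array in turn gave 0 to 1. In the settings with 0 by the brightest probe, limma gave an unadjusted p under 0.05 for 5 to 12 of the 53 genes. Over all probes, 344 passed, against 25 without CD 3, 32 without CD 1, 66 without the filter, 84 with slide as a fixed block, 88 with normexp and percentile scaling, 57 without slide 1, 612 with the variance trend, 677 with slide as a random block, 736 with all 9 arrays above background, 856 with normexp and quantile normalization, 1205 with array weights and 1211 at the looser threshold. The member share of 1.89% lay below that of named genes with normexp and quantile normalization (3.79%), slide as a random block (2.56%) and the variance trend (2.33%). Fewer arrays or more tests were part of some of these settings, and otherwise the cause was not tested.

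Of the 31 named genes, 15 kept their direction in every setting and 16 did not, and none of the 16 passed in the setting that turned it. Turned values with array weights were CXCL12 -0.12, TNFRSF1B -0.013 and TNFRSF21 0.063. With normexp and percentile scaling they were CSF3 -0.34, CXCR4 -0.23, IL13RA2 -0.053, IL15 -0.021, IL1B -0.37, IL29 -0.056, TNFAIP8L2 -0.18, TNFRSF12A -0.29, TNFRSF1B -0.33 and TNFRSF21 0.35. With normexp and quantile normalization they were CCR2 0.031, IL1B -0.01, TNFAIP8L2 -0.084, TNFRSF21 0.15 and TNFSF13B 0.054, and with quantile normalization IL10 0.41, TNFRSF1B -0.078, TNFRSF21 0.069 and TNFSF13B 0.26. With slide as a fixed block they were CXCL12 -0.24, TNFAIP8L2 -0.23, TNFRSF21 0.30 and TNFSF12 -0.12, as a random block CXCL12 -0.094 and TNFRSF21 0.13, and without slide 1 CXCL12 -0.20, TNFAIP8L2 -0.18, TNFRSF21 0.23 and TNFSF12 -0.13. With single arrays left out, the ranges were CCR1 -0.39 to 0.082, CCR2 -0.28 to 0.053, CSF3 -0.014 to 0.41, CXCL12 -0.11 to 0.24, TNFAIP8L2 -0.007 to 0.40, TNFRSF1B -0.082 to 0.20 and TNFRSF21 -0.10 to 0.11. No paired analysis was possible because the labels give the diet groups no shared replicate numbers. The 29 untested genes were too close to background for a comparison, and CD 1 was the dimmest array.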
